A study of Mus musculus with 9 samples.

Results

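The miRNAs described here are the mature products of 2 hairpins, mmu-miR-28a-5p, mmu-miR-28a-3p, mmu-miR-151-5p and mmu-miR-151-3p, and they were chosen by name as the 5p and 3p arms of an intronic miRNA of Lpp and of one of Ptk2. They are 4 of 1915 rows of the count tables, each a mature miRNA, and all 4 passed the minimum of more than 32 counts in at least 1 library, as did 304 miRNAs in all. The libraries hold the small RNA of the tibialis anterior (TA) muscle, a hindlimb muscle, of 4 control mice (C1 to C4) and of 5 mice that carried Lewis Lung Carcinoma (LLC) tumors (L1 to L3, L5 and L6). The LLC line was derived from a mouse lung carcinoma, and 750000 of its cells were placed under the skin of each flank 22 days before the muscle was taken, and the control mice received PBS alone. Each library is from a different animal of an isogenic strain. The sample labels name it C57BL/6J, with 10 weeks of age at the injection. The study's methods name C57BL/10 males that were 8 weeks old when used to make the model. The authors dropped a further library, L4, which was not analysed here.

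A miRNA hairpin is cut by Dicer into a duplex of a 5p and a 3p strand, and an Argonaute protein keeps one of them to guide the repression of mRNAs. For most hairpins one strand is kept far more often than the other, so the ratio of the 2 arms in a library depends on strand choice, on the stability of each strand and on how well each is captured, rather than on the amount of hairpin. Intronic miRNAs such as these are cut out of the transcript of their host gene. Lpp encodes a LIM-domain protein of focal adhesions and Ptk2 encodes focal adhesion kinase, a tyrosine kinase of the same structures.

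By the GRCm38 annotation of GENCODE (mouse release 21), the Mir28a hairpin lies at chr16:24827855-24827940 on the plus strand, in intron 8 of Lpp (an intron of 82814 bases in the coding transcript with the most exons) and within an intron of 3 of 3 coding transcripts. The Mir151 hairpin lies at chr15:73254815-73254882 on the minus strand, in intron 23 of Ptk2 (14556 bases). There, 2 of 9 coding transcripts had the hairpin within an intron, and the others did not span it. The mature sequences in RefSeq (GRCm38.p6) are shown for the arms of miR-28a, for miR-28b and for the arms of miR-708, to show which bases the relatives share. Letters in capitals are the seed, bases 2 to 8, which pairs with target mRNAs.
mmu-miR-28a-5p: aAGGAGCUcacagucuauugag
mmu-miR-708-5p: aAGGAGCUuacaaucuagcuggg
mmu-miR-28b: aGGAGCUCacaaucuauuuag
mmu-miR-28a-3p: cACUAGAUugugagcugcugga
mmu-miR-708-3p: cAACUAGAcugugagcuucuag

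RefSeq's table matched 2 of the 4 members and 270 of the 304 expressed miRNAs. The arms of miR-151 were not matched, so the bases that they share with the other miRNAs were not compared. mmu-miR-708-5p has the seed of mmu-miR-28a-5p and was the only other row of the count tables to do so among those with a sequence, and none had the seed of mmu-miR-28a-3p. mmu-miR-28b shares a run of 11 bases with mmu-miR-28a-5p, moved by 1 position, so that its seed differs, and the 3p arms of miR-28a and miR-708 share a run of 8 bases outside the seed. The relatives considered here were scarce in these muscles. mmu-miR-28b and mmu-miR-28c had 0 counts in each of the 9 libraries. The 5p arm of miR-708 had 17 to 62 counts and its 3p arm 18 to 67. A count of 3, set as the floor for a single library, came to between 0.383 and 0.601 CPM, the counts per 1000000 counts of a library. The depth therefore does not show that mmu-miR-28b and mmu-miR-28c were absent, because a level under that floor could go unseen in a library.

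The total count per library was 4992339 to 7833161, and the 4 miRNAs together held from 0.248 to 0.388% of it. CPM are given after TMM scaling in edgeR. The TMM factor was lowest in L5 (0.762) and L1 (0.876), and at most 1.15 elsewhere. Among markers of the tissue, miR-133a-3p and miR-133b-3p of skeletal muscle were abundant (20321 ± 3384 and 4619 ± 731 CPM in the control group, SD, n = 4), but the muscle miRNA miR-1a-3p had only 62 to 171 counts and miR-206-3p at most 3. Of lists of miRNAs that mark cell types, 3 of 3 erythroid miRNAs were lower in the LLC group at an unadjusted edgeR p of at most 0.05. Of all 304 miRNAs, 16.4% were within that limit. The erythroid miRNAs had edgeR adjusted p of 0.100 to 0.214, and miR-144-3p and miR-144-5p among them are arms of the same hairpin. The summed level of this list was 215 to 325 CPM in control mice and 92.4 to 220 CPM in LLC mice. Of 5 leukocyte miRNAs (summed level 691 to 800 CPM in control and 583 to 742 CPM in LLC mice) 4 were higher in LLC mice, and the 2 that passed that limit went opposite ways, with log2-fold changes of 0.70 for miR-223-3p and -0.38 for miR-150-5p. The limit was also passed by 1 of 2 miRNAs of endothelium and 1 of 2 of fibroblasts, both lower in LLC mice, and by 0 of 2 of smooth muscle and 0 of 4 expressed miRNAs of skeletal muscle. In bulk muscle, fewer cells of a type and less RNA per cell cannot be told apart, and the part of these lists in the results below was not tested.

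The arms of miR-151 had more reads than those of miR-28a. A read covers a whole mature miRNA, so CPM of different miRNAs were compared without a length term, and differences in how well each sequence is captured were not measured. Over all 9 mice the order of the mean levels was mmu-miR-151-5p (1689 CPM), mmu-miR-151-3p (1501 CPM), mmu-miR-28a-5p (118 CPM) and mmu-miR-28a-3p (69.7 CPM), at ranks 33, 38, 104 and 118 of 304. The step from miR-151 to miR-28a was 12.7-fold and held in 9 of 9 mice, and mmu-miR-28a-5p was above mmu-miR-28a-3p in 9 of 9 mice. The arms of miR-151 were not separated beyond their spread: the 5p arm was the higher one in 6 of 9 mice, with SDs of 222 and 235 CPM.

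The first comparison asked whether the level of any of the 4 arms changed in the muscle of tumor-bearing mice. None of the arms passed the test. A miRNA was called when its Benjamini-Hochberg adjusted p from edgeR (quasi-likelihood) did not exceed 0.05 and its change reached 1.5-fold, which 0 of 304 miRNAs (0%) met, while 50 of 304 (16.4%) were at or under 0.05 without adjustment. DESeq2 called 7 of 304 and limma with voom 0, and neither called any of these 4. No arm was among the 50, and none was among the 18 miRNAs (5.92%) whose CPM did not overlap between the groups.

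mmu-miR-28a-5p was nearly level across the mice. It stood at 121 CPM in C1, 117 in C2, 109 in C3 and 132 in C4, and at 118 in L1, 108 in L2, 118 in L3, 123 in L5 and 121 in L6. The LLC mice lay inside the control range except L2, which was just under it. The group levels were 120 ± 9.70 CPM (SD, n = 4) in the control and 117 ± 5.57 CPM (SD, n = 5) in LLC mice, which is a log2-fold change of -0.03 (SE 0.110, 95% interval -0.26 to 0.21, edgeR adjusted p = 0.882). That interval excludes a change as large as 1.5-fold in either direction.

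mmu-miR-28a-3p, the less abundant arm, was higher in most LLC mice after TMM scaling. Its level was 70.8 CPM in C1, 58.8 in C2, 57.0 in C3 and 66.4 in C4, against 78.5 CPM in L1, 66.8 in L2, 76.4 in L3, 76.4 in L5 and 75.8 in L6. In 4 of 5 LLC mice the level was above every control mouse, and L2 overlapped the control range. The groups averaged 63.3 ± 6.48 and 74.8 ± 4.58 CPM (SD, n = 4 and n = 5). The log2-fold change was 0.24 (SE 0.121, 95% interval -0.02 to 0.50), with an edgeR unadjusted p of 0.0647 and an adjusted p of 0.296. Before TMM scaling only L3 (82.0 CPM) and L6 (84.4 CPM) were above the highest control mouse (C1, 80.8 CPM). L5 was then at 58.2 CPM.

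mmu-miR-151-5p varied more among tumor-bearing mice than among control mice. It was at 1634, 1680, 1834 and 1884 CPM in C1 to C4, and at 1418 CPM in L1, 2022 in L2, 1835 in L3, 1513 in L5 and 1381 in L6. L1, L5 and L6 lay under the control range, L3 lay inside it and L2 above it. The means were 1758 ± 120 CPM (SD, n = 4) in control and 1634 ± 281 CPM (SD, n = 5) in LLC mice, with a log2-fold change of -0.11 (SE 0.128, 95% interval -0.38 to 0.17, edgeR adjusted p = 0.651). The coefficient of variation was 6.84% among control and 17.2% among LLC mice, where counting alone would give 0.947 and 0.959%.

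After TMM scaling mmu-miR-151-3p was, like the 3p arm of miR-28a, above every control mouse in 4 of 5 LLC mice. Control mice had 1397 CPM in C1, 1228 in C2, 1511 in C3 and 1344 in C4. LLC mice had 2037 CPM in L1, 1321 in L2, 1591 in L3, 1545 in L5 and 1539 in L6. L2 was again the LLC mouse inside the control range, and L1 stood highest. The means were 1370 ± 118 and 1607 ± 263 CPM (SD, n = 4 and n = 5), and the log2-fold change was 0.23 (SE 0.127, 95% interval -0.04 to 0.50), with an edgeR adjusted p of 0.328. Without L1 the log2-fold change was 0.13 (edgeR adjusted p = 0.611). Before TMM scaling L1 (1785 CPM), L3 (1708 CPM) and L6 (1713 CPM) were above the highest control mouse (C1, 1594 CPM). L2 (1304 CPM) and L5 (1177 CPM) were then below the lowest control mouse (C4, 1363 CPM).

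**Figure D1:**
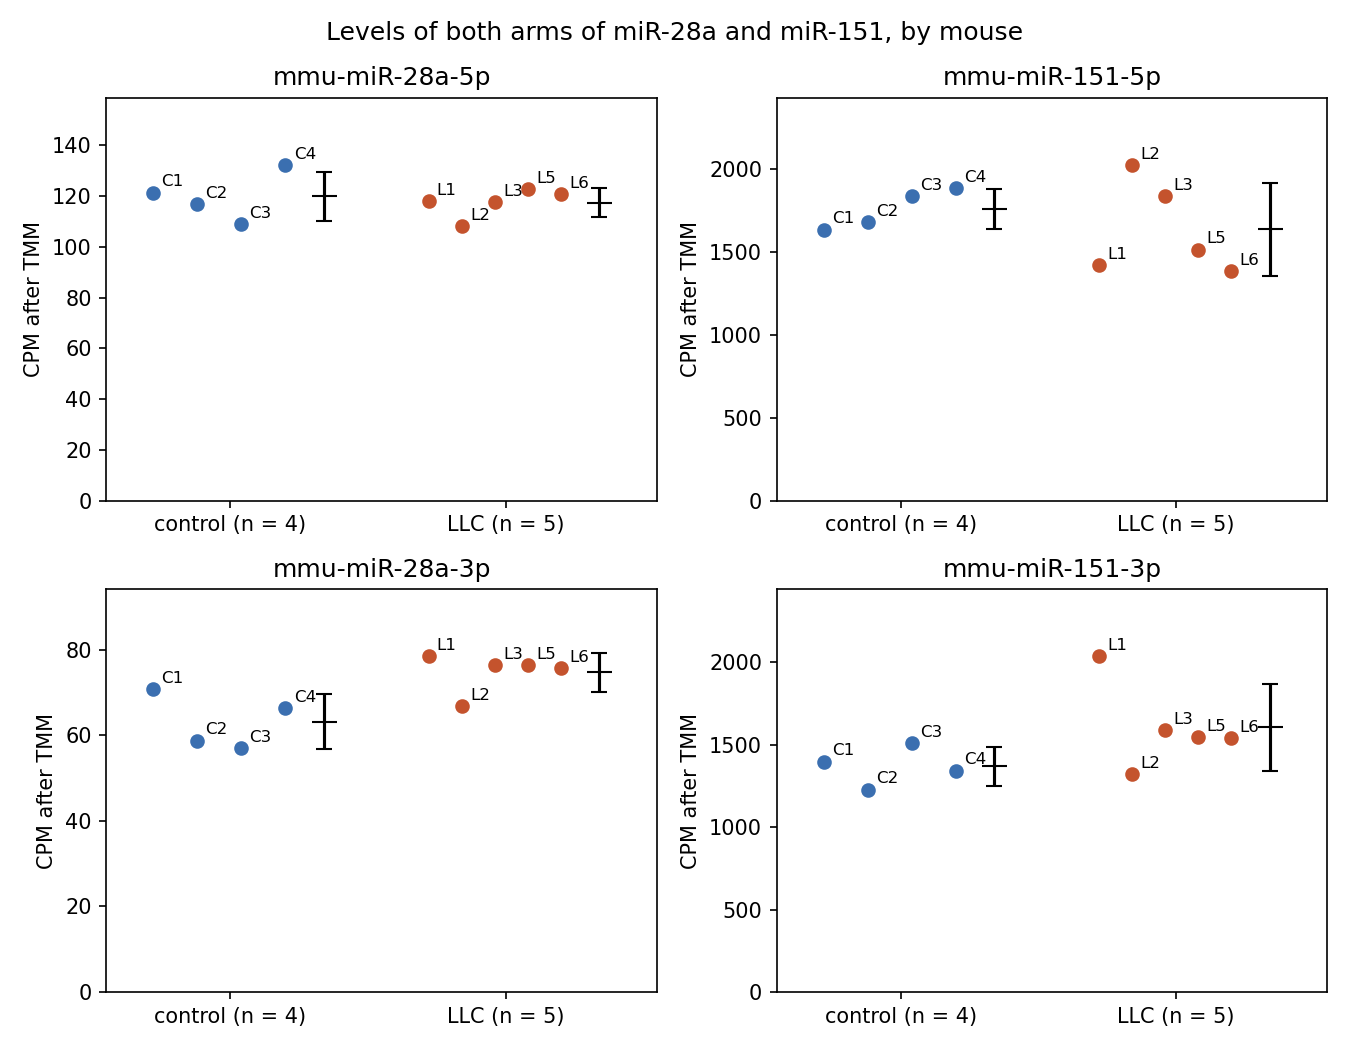
CPM after TMM scaling of each arm (vertical axes, from 0) in each mouse, control mice in blue and LLC mice in red, with the group mean and SD in black. The 3p arms, in the lower panels, have 4 of 5 LLC mice above all control mice, and the 5p arms, in the upper panels, do not.

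The log2 CPM of each arm was also tested alone. In a two-sided exact permutation test over every way of assigning the 9 mice to groups of 4 and 5 (smallest possible p = 0.00794), mmu-miR-28a-3p had p = 0.0238, mmu-miR-151-3p p = 0.111, mmu-miR-151-5p p = 0.373 and mmu-miR-28a-5p p = 0.698. These values were not adjusted over the miRNAs tested, and in the fit over all 304 the 3p arm of miR-28a did not pass. Scaling mattered for these levels: with library totals alone the log2-fold changes of the 304 miRNAs had a median of -0.17, and after TMM of -0.02. On that scale the 3p arms kept a positive log2-fold change with library totals alone (0.09 for mmu-miR-28a-3p and 0.08 for mmu-miR-151-3p) and the 5p arms a negative one (-0.18 for mmu-miR-28a-5p and -0.24 for mmu-miR-151-5p), but with RLE factors, another scaling, the value of mmu-miR-28a-5p was 0.015.

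**Figure D2:**
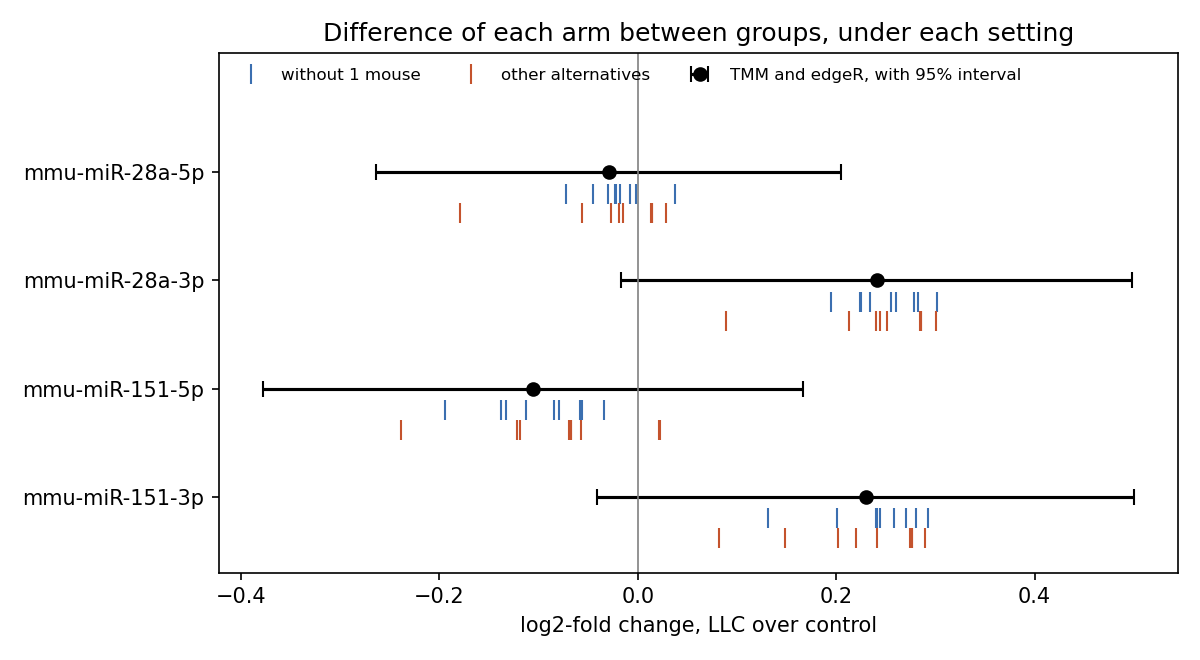
Log2-fold change of each arm (horizontal axis, LLC over control), with the edgeR estimate and its 95% interval in black, the values without 1 mouse in blue and those under other scalings, filters and tests in red. All black intervals include 0, and the values of the 3p arms lie to the right of 0 under each setting plotted.

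The next comparison took the 5p to 3p ratio of each hairpin within a library, a measure that no scaling between libraries can alter. In miR-28a the 5p arm was the major one in every mouse, and its lead was smaller in tumor-bearing mice. The counts of the 5p and the 3p arm were 896 and 523 in C1, 883 and 444 in C2, 615 and 322 in C3, and 669 and 336 in C4. They were 698 and 465 in L1, 664 and 410 in L2, 885 and 575 in L3, 621 and 387 in L5, and 1054 and 661 in L6. The ratios were therefore 1.71, 1.99, 1.91 and 1.99 in C1 to C4, and 1.50, 1.62, 1.54, 1.60 and 1.59 in L1, L2, L3, L5 and L6. All 5 LLC mice were below all 4 control mice, with the highest LLC mouse (L2, 1.62) and the lowest control mouse (C1, 1.71) close to each other.

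The mean ratio of the miR-28a arms was 1.90 ± 0.131 (SD, n = 4) in the control and 1.57 ± 0.0499 (SD, n = 5) in the LLC group, which is a 5p share of 65.5 ± 1.61% against 61.1 ± 0.761% of the reads of both arms. On the log2 scale the difference between LLC and control mice was -0.27 (p = 0.00794 by exact permutation, two-sided, the smallest this design allows). Adjusted over the 74 hairpins with both arms expressed, the p was 0.343. Of these 74 hairpins, 6 (8.11%) had an exact permutation p of at most 0.05, and miR-28a was the 1 (1.35%) whose groups did not overlap. miR-28a had the lowest exact p of the 74. None passed after adjustment, but with this number of mice none can pass unless at least 12 of the 74 pass together, and 1 hairpin reached the smallest possible p. limma across the 74 hairpins, a test added after the data were seen, gave an interval of -0.60 to 0.06 for the log2 difference and an adjusted p of 0.277, and it called 0 of 74 after adjustment and 12 without.

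The precision of the ratio was limited by counting. With 937 to 1715 reads of both arms per library, the 95% Wilson interval of the 5p share was 60.6 to 65.6% in C1 and 58.9 to 64.7% in L2, so these neighbouring mice cannot be told apart at this depth, and intervals cover counting error only. Counting alone would give the log2 ratio an SD of 0.0901 in control and 0.0843 in LLC libraries, and the SD between mice was 0.102 and 0.0461. The spread of the miR-28a ratio within groups (0.0753 on the log2 scale) was the smallest of the 74 hairpins, whose median was 0.358. That spread was below both SDs expected from counting alone, so with these few mice it may understate the true spread. The group difference of the miR-28a ratio was of ordinary size, with 41.9% of hairpins showing a smaller one.

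In miR-151 the arms were close to even, and their order differed between mice. The 5p and 3p counts were 12063 and 10319 in C1, 12681 and 9269 in C2, 10359 and 8535 in C3, and 9537 and 6803 in C4. They were 8400 and 12064 in L1, 12411 and 8107 in L2, 13815 and 11981 in L3, 7663 and 7828 in L5, and 12046 and 13421 in L6. The 5p arm had the larger count in 4 of 4 control mice and in 2 of 5 LLC mice.

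The ratio of the miR-151 arms was 1.17, 1.37, 1.21 and 1.40 in C1 to C4, and 0.696 in L1, 1.53 in L2, 1.15 in L3, 0.979 in L5 and 0.898 in L6. L1, L3, L5 and L6 lay below the control range and L2 above it, so the groups overlapped. The mean was 1.29 ± 0.114 (SD, n = 4) in control and 1.05 ± 0.314 (SD, n = 5) in LLC mice, a log2 difference of -0.34 (two-sided exact permutation test, p = 0.175, adjusted over 74 hairpins p = 0.392). The size of the difference rested on single mice. Without L2 it was -0.49 (exact permutation p = 0.0286, not adjusted over hairpins), without L1 it was -0.20 (exact permutation p = 0.314), and without both L1 and L5 it was -0.14 (exact permutation p = 0.571). The interval of the log2 difference from limma over all mice was -0.83 to 0.15.

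**Figure D3:**
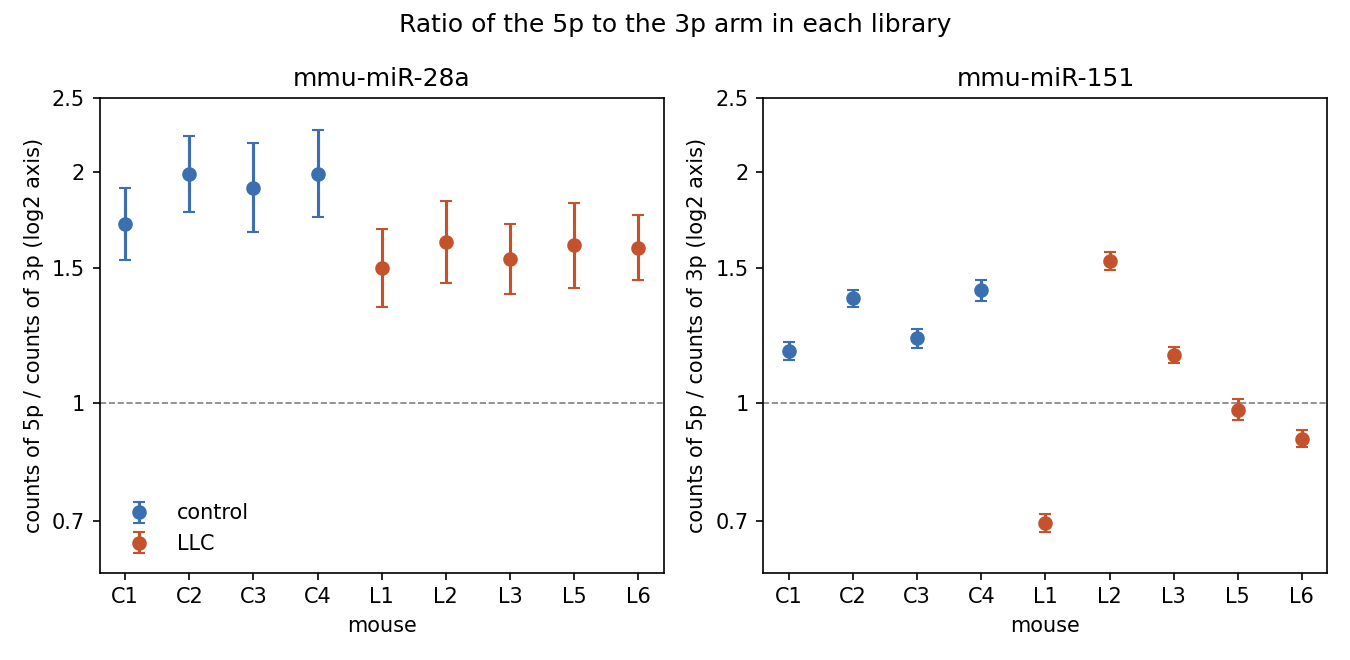
Counts of the 5p arm over counts of the 3p arm (vertical axis, log2 scale) in each mouse for miR-28a and miR-151, control in blue and LLC in red, with 95% Wilson intervals for counting error and a dashed line at equal arms. The 5 LLC mice are below the 4 control mice for miR-28a, at 1.50 to 1.62 against 1.71 to 1.99, while for miR-151 the LLC mice run from 0.696 to 1.53 around the control range.

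Unlike that of miR-28a, the spread of the miR-151 ratio was far beyond counting error. Its SD between mice on the log2 scale was 0.128 in control and 0.423 in LLC libraries, against 0.0208 and 0.0202 from counting. With 15491 to 25796 reads of both arms per library, the Wilson interval of the 5p share was as narrow as 40.4 to 41.7% in L1 and 59.8 to 61.2% in L2. These LLC mice thus stood at the extremes of the 9, with 5p shares of 41.0 and 60.5%. Whether the spread itself differed between the groups was not tested.

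Against other hairpins, the arms of miR-28a and miR-151 were more even than most. The median hairpin of the 74 had one arm 11.8-fold above the other, and only 12 had their arms within 2-fold, among which miR-151 ranked 5 and miR-28a 10 by evenness. The ratio was lower in the LLC group in 41 of 74 hairpins (55.4%), with a median log2 difference of -0.05, and the absolute difference had a median of 0.295.

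**Figure D4:**
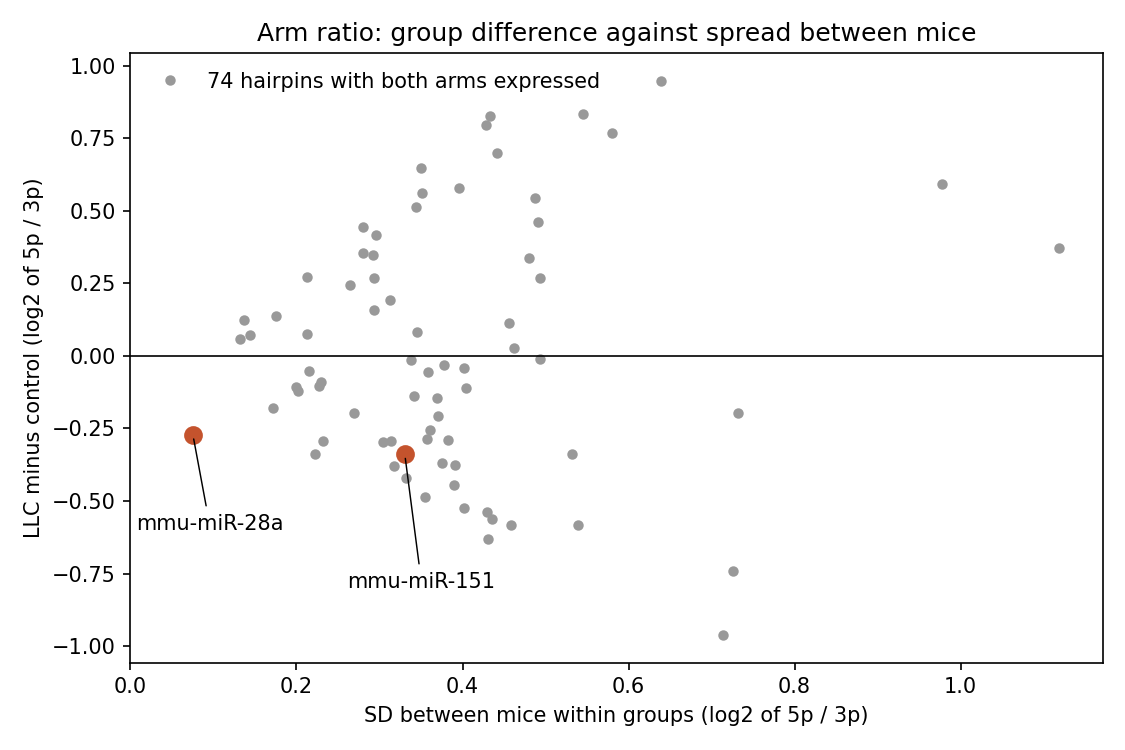
Difference of the mean log2 5p to 3p ratio between groups (vertical axis, LLC minus control) against the SD between mice within groups (horizontal axis, log2 units) for the 74 hairpins with both arms expressed. miR-28a, in red, has the smallest SD (0.0753) with a difference of -0.27. Counting alone would give it an SD of 0.0901 in control and 0.0843 in LLC libraries. miR-151, in red, lies among the other hairpins at an SD of 0.330 and a difference of -0.34.

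The 2 hairpins did not differ detectably in how far their arm ratios moved. The log2 ratio of miR-151 minus that of miR-28a was -0.56 ± 0.0638 (SD, n = 4) in control and -0.63 ± 0.394 (SD, n = 5) in LLC mice (two-sided exact permutation test of the difference, p = 0.754). Summed over both arms, the level of neither hairpin passed a test between the groups. The arms of miR-28a together came to 183 ± 14.9 and 192 ± 9.79 CPM in the control and LLC groups (SD, n = 4 and n = 5, exact permutation p = 0.270), and those of miR-151 to 3128 ± 196 and 3240 ± 239 CPM (exact permutation p = 0.484). The sum of the miR-151 arms was 14.8 to 20.2 times that of the miR-28a arms in single mice, with a mean of 17.2 ± 2.01 in control and 16.9 ± 1.77 in LLC mice (exact permutation p = 0.849).

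Across the 9 mice the arms of miR-151 had a negative correlation and those of miR-28a a positive one, but none of the 6 pairs of members passed a test. Pearson's r of the log2 CPM was -0.57 for the arms of miR-151 (exact permutation p = 0.105, Spearman's rho -0.52, exact p = 0.162) and 0.37 for the arms of miR-28a (exact p = 0.328, rho 0.37, exact p = 0.336). The closest pair was the 3p arms, mmu-miR-28a-3p and mmu-miR-151-3p, with r = 0.64 (exact p = 0.0595) and rho = 0.80 (exact p = 0.0138), which after Benjamini-Hochberg adjustment over the 6 pairs became p = 0.245 and p = 0.0830, the lowest of the 6 for r and for rho. Without the 2 mice farthest from the median of a single arm of the pair, r was -0.57, 0.73 and 0.84 for these 3 pairs. That arm was mmu-miR-151-5p (L2 and L6 left out), mmu-miR-28a-5p (C4 and L2) and mmu-miR-28a-3p (C2 and C3). Within groups, as deviations from the group means, r was -0.49, 0.77 and 0.41. For the remaining 3 pairs r was -0.56 (mmu-miR-28a-3p and mmu-miR-151-5p), -0.30 (mmu-miR-28a-5p and mmu-miR-151-5p) and -0.01 (mmu-miR-28a-5p and mmu-miR-151-3p).

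The miRNAs with the most similar pattern were found as those whose log2 CPM kept the most constant distance to a member over the 9 libraries, that is, with the smallest SD of the log2 ratio. For mmu-miR-28a-5p these were miR-378a-5p (SD 0.107), let-7e-5p (0.110) and let-7c-5p (0.119), against a median of 0.291 over 303 miRNAs, and its own 3p arm was at rank 17. For mmu-miR-28a-3p they were miR-98-5p (0.116), miR-1198-5p (0.129) and miR-434-3p (0.130), and its 5p arm was at rank 12 and mmu-miR-151-3p at rank 15. For mmu-miR-151-5p they were miR-125b-2-3p (0.0761), miR-361-5p (0.0961) and miR-214-3p (0.129). For mmu-miR-151-3p they were miR-24-3p (0.110), miR-98-5p (0.116) and miR-30a-3p (0.121).

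The arms of miR-151 were no nearer in pattern to each other than to a typical miRNA. With an SD of 0.357 the 3p arm was at rank 190 of 303 for the 5p arm, and the 5p arm at rank 148 for the 3p arm. mmu-miR-28a-3p stood at rank 13 in the list of mmu-miR-151-3p, ahead of mmu-miR-151-5p, its own partner. No row of the count tables had the same counts as a member in all 9 libraries.

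The considered relatives with detectable reads, the arms of miR-708, come from a hairpin on chromosome 7 and were measured at far lower depth. The 5p arm, with the seed of mmu-miR-28a-5p, was at 7.18, 8.21, 6.02 and 5.53 CPM in C1 to C4 and at 2.87, 6.19, 7.70, 4.93 and 5.04 CPM in L1, L2, L3, L5 and L6. It was below the control range in 3 of 5 LLC mice, with a log2-fold change of -0.33 (SE 0.256, edgeR adjusted p = 0.486). For the 3p arm the log2-fold change was -0.40 (SE 0.259, edgeR adjusted p = 0.405), with 4.74 to 9.07 CPM in control and 3.55 to 6.99 CPM in LLC mice. The ratio of the miR-708 arms was 1.04 ± 0.191 in control and 1.09 ± 0.402 in LLC mice (SD, n = 4 and n = 5, exact permutation p = 0.968), and with 43 to 124 reads per library a shift of the size seen in miR-28a was not detectable. Because the mapping asked for a match without mismatch in the first 8 bases of a read, which are the same in mmu-miR-28a-5p and mmu-miR-708-5p, their reads are separated by the later bases alone.

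As a wider group, 96 of the 304 expressed miRNAs, these 4 among them, come from hairpins that all lie within an intron of a protein-coding gene on the same strand. None of the 96 passed the adjusted threshold of edgeR, and without adjustment 12 were at or under 0.05, with 4 higher and 8 lower in the LLC group. Of the 193 with a hairpin elsewhere 35 had such a p, and of the 15 with no match in the annotation 3 did. The median log2-fold change was -0.03 among the intronic miRNAs and -0.02 among the others, beside -0.02 over all 304.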

How the data were processed

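TruSeq small RNA libraries of TA muscle RNA were read as single-end 50 bp reads. The authors mapped them with Bowtie to the mature sequences of miRBase 21, without mismatch in the first 8 bases and with every best alignment kept, and deposited, for each library, the raw counts of each mature miRNA. These were fitted with edgeR 4.0.16 in R 4.3.3 (TMM factors, quasi-likelihood F test, no block, more than 32 counts in at least 1 library) at an adjusted p of 0.05 and a fold change of 1.5; log2 CPM used a prior count of 2. Arm ratios came from raw counts and were tested by exact permutation with scipy 1.17.1. Alternatives included DESeq2 1.42.0 and limma 3.58.1 with voom. Tests were checked on simulated data. No library was a copy of another (lowest chi-square per degree of freedom within a group 124). Groups and mouse numbers come from the sample labels. The members, the lists and the rule for similar miRNAs (smallest SD of the log2 CPM ratio, 3 per member) were chosen with earlier results of these data known. The mRNA libraries were not analysed here.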

Additional observations from a re-analysis of the deposited data

Results flagged for a closer look

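One value stood far from the rest of its group by Dixon's ratio, out of 14 groups of mice examined: mmu-miR-28a-3p in the LLC group, where L2 had 66.8 CPM and the other 4 LLC mice 75.8 to 78.5 CPM. About 1 in 20 such groups is picked out by chance. L2 was also the LLC mouse with the lowest mmu-miR-151-3p (1321 CPM) and the highest mmu-miR-151-5p (2022 CPM) and the highest 5p to 3p ratio of both hairpins, and without L2 the log2-fold change of mmu-miR-28a-3p was 0.28.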

How the results depend on the processing

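No alternative called any of the 4 arms. mmu-miR-28a-3p and mmu-miR-151-3p kept their direction and their side of the threshold under all 18 alternatives, with log2-fold changes of 0.09 to 0.30 and 0.08 to 0.29 and adjusted p of 0.210 to 0.848 and 0.179 to 0.834. Without single mice they ran from 0.19 to 0.30 and from 0.13 (without L1) to 0.29. mmu-miR-28a-5p, close to 0, turned to 0.015 with RLE factors, 0.014 with DESeq2, 0.013 with no filter, 0.029 with filterByExpr and 0.038 without C4, and ran from -0.072 to 0.038 when single mice were left out. mmu-miR-151-5p ran from -0.19 (without L2) to -0.034 (without L6) when single mice were left out and turned to 0.021 with the replicate block and 0.022 without both L1 and L5, a setting chosen after seeing the data. The number of miRNAs called was 7 with DESeq2, 22 of 932 with no filter, 1 without both L1 and L5 and 0 to 8 without single mice (1 without L1, 8 without L3). The causes of these moves were not tested.

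The log2 difference of the miR-28a arm ratio stayed between -0.32 and -0.25 without single mice (exact p 0.0179 to 0.0286). Because the groups did not overlap, each of these p was the smallest that the omission allows, so they add no separate support. It no longer passed with the replicate block (-0.27, exact p = 0.250, the smallest that block allows), without both L1 and L5 (-0.26, exact p = 0.0571) or with limma (-0.27, unadjusted p = 0.0974), the last also added after seeing the data. That of miR-151 ran from -0.49 (without L2, the 1 omission at which it passed) to -0.20 (without L1), and was -0.14 without both L1 and L5. The abundance ratio of the hairpins, near 0 at -0.022, turned to 0.10 with medians, 0.058 with the replicate block and 0.0010 without both L1 and L5, and ran from -0.067 to 0.057 without single mice. The log2 difference between the hairpins' arm ratios turned to 0.046 with the replicate block and 0.12 without both L1 and L5, and ran from -0.20 to 0.053 without single mice. The correlation of mmu-miR-28a-5p with mmu-miR-151-3p turned from -0.011 to 0.096 within groups. Same-numbered mice did not deviate together (correlations -0.23, -0.090 and -0.25), and 1 of 6 mice correlated best with their own number, so the numbers were not taken to pair the mice; with the replicate block 0 miRNAs were called, with 15 at or under 0.05 before adjustment.

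With 322 to 1054 reads per arm, counting limits the miR-28a ratio. In simulated libraries, edgeR called 38 of 67 miRNAs changed 1.5-fold and 57 of 62 changed 2-fold. Most miRNAs were changed at once there, which eases the adjusted threshold, and a call also needed an estimated change of 1.5-fold. These rates therefore do not give the power to call a change of single arms in libraries where few miRNAs change. The strain is given differently by the labels and the methods.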
